A study of Mus musculus with 2 samples.

Results

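The genes of mitochondrial fatty acid oxidation, 34 of the 55536 annotated genes of the series, were described in the adrenal gland of the young mouse. They were chosen by symbol as the enzymes and carriers that take up, activate, import and oxidise fatty acids in mitochondria, with a few close partners, and not by their values. Total RNA was sequenced from adrenal gland tissue taken at 10 days of age from females of strain B6CASTF1/J, a cross of C57BL/6J with CAST/EiJ; the labels give the developmental stage as unknown. The series holds 1 group with 2 libraries, numbered replicates 1 and 2, each made from 300 ng of RNA after reduction of ribosomal RNA and with ERCC spike-in RNA added. There is no treatment, mutant or second condition. Each tissue sample carries its own female number in the labels, yet both library descriptions carry 1 female number, 1 cDNA number and 1 donor entry, so whether n = 2 stands for separate animals is not established, and every SD measures only the spread between these samples, which may be technical.

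Fatty acids that enter a cell are joined to coenzyme A by acyl-CoA synthetases. Long-chain acyl groups cross the mitochondrial membranes as carnitine esters through the carnitine palmitoyltransferases and a translocase. Inside, repeated rounds of dehydrogenation, hydration, a further dehydrogenation and thiolysis release acetyl-CoA, and the electrons of the acyl-CoA dehydrogenases pass through the electron transfer flavoprotein to the respiratory chain. Brown fat, heart, muscle and liver are known for high rates of the pathway. In the adrenal cortex mitochondria also carry out steps of steroid synthesis.

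Nearly every gene of the pathway was present, and the core enzymes were among the abundant nuclear mRNAs of the tissue. Levels are given in TPM, a unit scaled over all features of the gene table and per transcript length, which allows genes to be compared. Of the 34 genes 33 had at least 1 TPM in both libraries, 30 had at least 10 TPM and 19 had at least 100 TPM. Among all 22015 nuclear protein-coding genes, 12800 reached 1 TPM, 6114 reached 10 TPM and 493 reached 100 TPM in both libraries. The shares at 100 TPM were 55.9% of the fatty acid oxidation genes and 2.24% of nuclear protein-coding genes. The median over the 34 genes of the mean level was 123 TPM, against 10.1 TPM for nuclear protein-coding genes at 1 TPM or more. The 34 genes summed to 6873 TPM in replicate 1 and 7462 TPM in replicate 2, or 2.02% and 2.28% of the TPM of nuclear protein-coding genes. The exception at the limit of 1 TPM was Acsl6, at 1.18 and 0.69 TPM from 108 and 70 counts. Its deposited credibility interval in replicate 2, 0.80 to 1.62 TPM, spanned 1 TPM and did not hold the listed 0.69 TPM. In the other deposited quantification Acsl6 stood above that limit in both libraries, at 2.06 and 1.16 TPM.

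**Figure D1:**
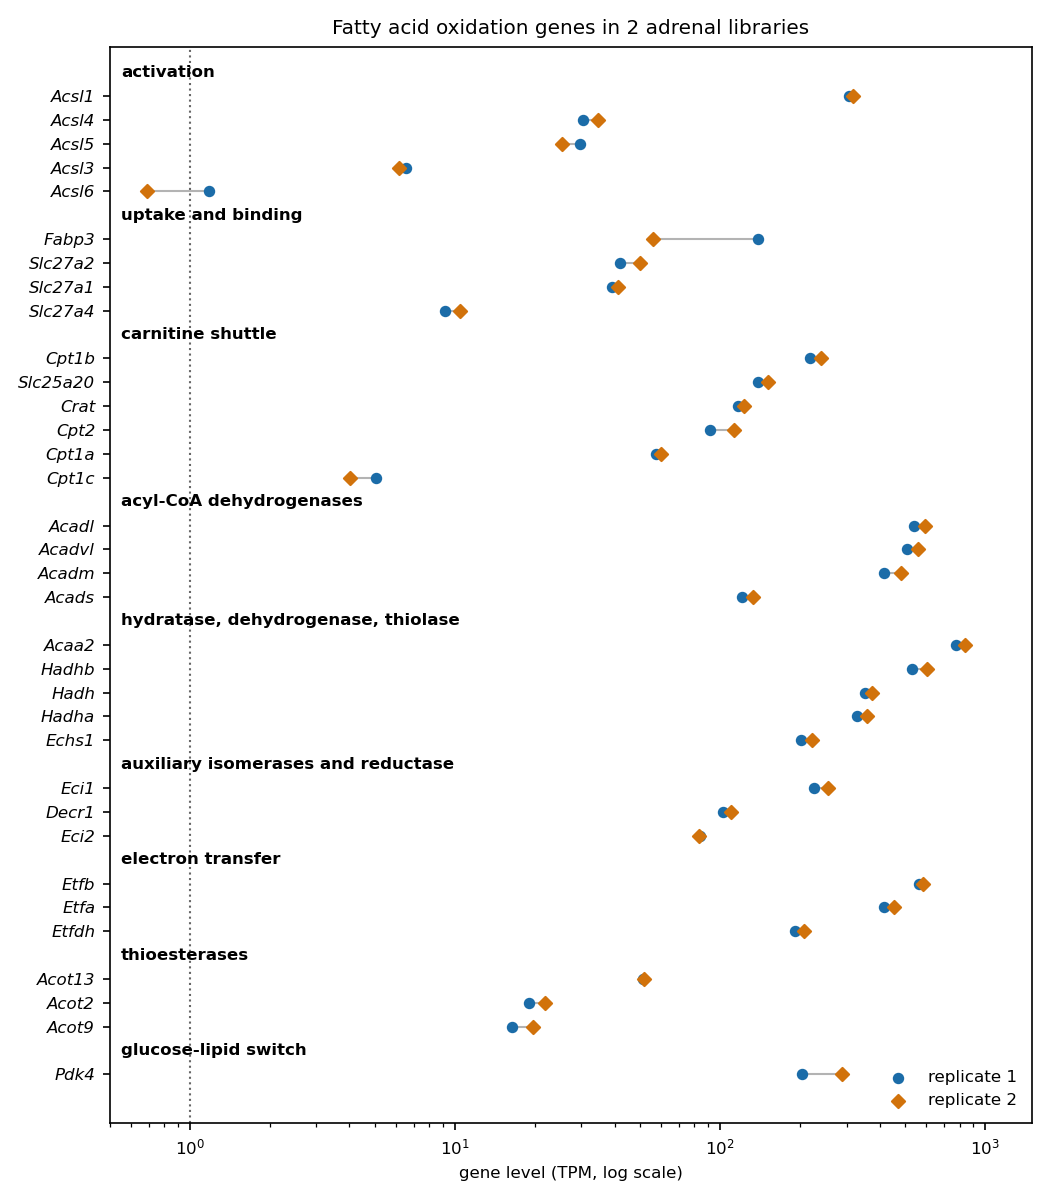
Level of each fatty acid oxidation gene in TPM (log scale) in replicate 1 (blue circles) and replicate 2 (orange diamonds), grouped by role; the dotted line marks 1 TPM and grey lines join the libraries. The dehydrogenase, thiolase and electron transfer genes lie above 100 TPM in both libraries, Fabp3 shows the widest gap of the genes above 10 TPM, and Acsl6 falls on both sides of the dotted line.

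Replicate 1 had a total of 35636846 expected counts and replicate 2 of 33378436, so a count of 0 allows up to 3 counts, or 0.0842 and 0.0899 CPM. None of the 34 genes was at 0 in either library. The labelled tissue was checked against its markers: all 10 adrenal cortex genes and 6 of 8 chromaffin cell genes had at least 10 TPM in both libraries. All 8 chromaffin cell genes had at least 1 TPM in both. Markers of other tissues were also present, and their sums differed between the libraries, from 4313 to 830 TPM for 8 hepatocyte genes, from 3334 to 1149 TPM for 10 skeletal muscle genes and from 1.72 to 306 TPM for 10 kidney tubule genes, in replicates 1 and 2. Slc22a6, a kidney tubule gene, was at 0 in replicate 1. The 7 brown fat genes summed to 2950.0 and 3527 TPM, and all 7 had at least 1 TPM in both libraries. General fat genes, 8 in number, summed to 2823 and 3239 TPM, and all 8 had at least 1 TPM in both libraries. In whole tissue, fewer cells of a type and less RNA per cell cannot be told apart, and the part of each cell type in the levels below was not tested.

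Activation of fatty acids to acyl-CoA was represented mainly by Acsl1, the long-chain acyl-CoA synthetase typical of oxidising tissues. Acsl1 stood at 307 TPM in replicate 1 and 318 TPM in replicate 2. Acsl4, which prefers polyunsaturated substrates such as arachidonate, stood at 30.4 and 34.7 TPM. Acsl1 exceeded Acsl4 by a log2 ratio of levels of 3.27 ± 0.10 (SD, n = 2), 9.62-fold. Acsl5, found on mitochondria and the endoplasmic reticulum, stood at 29.6 and 25.4 TPM, and Acsl3, a synthetase of lipid droplet formation, at 6.55 and 6.13 TPM. The order Acsl1, Acsl4, Acsl5, Acsl3, Acsl6 held in each library, but in replicate 1 Acsl4 and Acsl5 were nearly level.

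Uptake and binding genes had a median level of 42.9 TPM, against 490.4 TPM for the acyl-CoA dehydrogenases, and held the gene that differed most between the libraries. The fatty acid transport proteins Slc27a2 and Slc27a1 stood at 42.0 and 49.7 TPM and at 39.0 and 41.1 TPM in replicates 1 and 2. The library ranges of these carriers did not overlap, but lay within a few TPM. Slc27a4, a carrier of the same family, stood at 9.19 and 10.4 TPM, below Slc27a1 by 4.09-fold. Fabp3, the fatty acid binding protein known from heart and skeletal muscle, stood at 139 TPM in replicate 1 and 55.7 TPM in replicate 2.

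In the carnitine shuttle the muscle-type isoform of the first enzyme exceeded the liver-type isoform. Cpt1b (muscle type; chromosome 15, 89416405 to 89425863 in mm10, minus strand) stood at 218 and 241 TPM. Cpt1a (liver type; chromosome 19, 3322334 to 3385733, plus strand) stood at 57.2 and 59.8 TPM. The library ranges of the isoforms were far apart, and Cpt1b exceeded Cpt1a by a log2 ratio of levels of 1.97 ± 0.06 (SD, n = 2), 3.91-fold. In the other deposited quantification the same ratio was 1.51 ± 0.02, 2.85-fold. Cpt1c, the isoform known from neurons, lay 12.95-fold below Cpt1a at 5.05 and 4.04 TPM. Cpt1b may also share reads with Gm44502, an overlapping annotated gene with an identical stretch, which was listed at 1.85 and 1.26 TPM in the first quantification and at 37.2 and 41.7 TPM in the other, so the division of reads between them is uncertain.

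The later steps of the shuttle lay between the isoforms. Slc25a20, the carnitine-acylcarnitine translocase of the inner membrane, stood at 139 and 152 TPM. Cpt2, which returns the acyl group to coenzyme A inside the mitochondrion, stood at 91.5 and 113 TPM, below the translocase by 1.43-fold. Crat, the carnitine acetyltransferase that buffers acetyl-CoA, stood at 117 and 123 TPM. Crat lay above Cpt2 in both libraries.

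The acyl-CoA dehydrogenases, which start each round of oxidation and are specialised by chain length, were all abundant. Acadl (long chain) stood at 540.0 and 590.1 TPM, Acadvl (very long chain) at 508 and 556 TPM and Acadm (medium chain) at 416 and 481 TPM. Acads (short chain) was lower, at 121 and 133 TPM, and lay 3.53-fold below Acadm. Acadl exceeded Acadm by a log2 ratio of levels of 0.34 ± 0.06 (SD, n = 2). Acadvl and Acadl differed by a log2 ratio of -0.09, larger than its SD of 0.0016, but in the other quantification the ratio was -0.005 with an SD of 0.018, so their order was not settled. Of the 13 pairs of genes compared in this way, it was the only pair whose difference did not exceed the spread in that quantification. These ratios were not tested, since 2 libraries allow an exact p of 0.5 at the lowest.

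Of the enzymes that complete the round, Acaa2, the mitochondrial 3-ketoacyl-CoA thiolase, had the highest level in TPM of the 34 genes. It stood at 773 and 841 TPM and ranked 20 among nuclear protein-coding genes. Its transcript Acaa2-202, of 504 bases, took 27.55% and 30.42% of that TPM, and 13.9% and 14.4% in the other quantification. By counts Acaa2, at 29625 and 29152, lay below Acsl1, Acadl, Acadvl and Hadha in both libraries. Hadh, the dehydrogenase of medium and short chains, stood at 353 and 373 TPM and Echs1, the short-chain hydratase, at 201 and 222 TPM. The mitochondrial trifunctional protein handles long chains with an alpha subunit from Hadha and a beta subunit from Hadhb. Hadha stood at 329 and 357 TPM and Hadhb at 528 and 604 TPM. By TPM Hadhb was higher in both libraries, with a log2 ratio of Hadha to Hadhb of -0.72 ± 0.05 (SD, n = 2), and -1.21 ± 0.05 in the other quantification. By counts, which are not scaled by length, Hadha was higher, at 30897 and 31309 against 27604 and 28956. Hadhb-208, a retained-intron transcript of 507 bases, took 24.8% and 25.9% of the Hadhb TPM, and 54.1% and 54.4% in the other quantification. The ratio therefore depends on length scaling and on the division among transcripts. Reads of Hadhb may be shared with the processed pseudogene Gm13910, 99.8% identical over 1428 bases, which was listed at 65.5 and 72.1 TPM.

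Hadha (chromosome 5, 30118304 to 30155162, minus strand) and Hadhb (chromosome 5, 30155248 to 30184593, plus strand) are transcribed away from each other, with annotated starts 86 bases apart. The stretch between the starts is shown because both subunits share it. It is the plus strand from RefSeq on GRCm38.p6, and the capitals mark each GC box (GGGCGG).
Hadha-Hadhb, chr5:30155163-30155247: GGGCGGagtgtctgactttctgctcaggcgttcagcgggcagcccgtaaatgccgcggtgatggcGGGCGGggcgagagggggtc
The stretch holds 2 GC boxes, at its Hadha end and toward its Hadhb end. Neither gene passed the 2-fold threshold between the libraries, with log2 ratios of 0.18 for Hadha and 0.23 for Hadhb (replicate 2 over replicate 1).

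Electron transfer genes had a median level of 433 TPM, near the 490 TPM of the acyl-CoA dehydrogenases. The auxiliary enzymes were lower, with a median of 106 TPM. Eci1, the isomerase that lets unsaturated fatty acids enter the cycle, stood at 225 and 256 TPM and its relative Eci2, also found in peroxisomes, at 83.8 and 83.1 TPM, so that Eci1 exceeded Eci2 by 2.88-fold. Decr1, the dienoyl-CoA reductase of polyunsaturated chains, stood at 102.6 and 110.4 TPM. The flavoprotein subunits Etfa and Etfb stood at 415 and 452 TPM and at 562 and 581 TPM. Etfdh, which hands their electrons to ubiquinone, stood at 191 and 207 TPM and lay 2.18-fold below Etfa. The spread between the libraries was smaller than each of these gaps.

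Thioesterases, which release free fatty acids from acyl-CoA, formed a low group. Acot13 stood at 51.1 and 51.5 TPM, the mitochondrial Acot2 at 18.97 and 21.9 TPM and Acot9 at 16.4 and 19.7 TPM. Acot2 is 95.1% identical to Acot1 over 1274 bases and Acot9 is 97.1% identical to Acot10 over 1488 bases, so their values are uncertain to that extent. Pdk4, the kinase that switches off pyruvate dehydrogenase when fatty acids are burned, stood at 203 TPM in replicate 1 and 288 TPM in replicate 2. On average Pdk4 lay next to Eci1, at 246 against 241 TPM, and its libraries were further apart.

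Down the order of mean levels, from Acaa2 at 807 TPM to Acsl6 at 0.935 TPM, 33 neighbouring pairs can be formed. The library ranges did not overlap in 19 pairs, and 27 pairs kept their order in both libraries. The remaining neighbours, such as Etfb, Hadhb and Acadl at 572, 566 and 565 TPM, cannot be ordered. In the other quantification Hadhb came first at 1191 TPM and Acaa2 second at 1055 TPM. There the retained-intron transcript Hadhb-208 took 54.1% and 54.4% of the Hadhb TPM in replicates 1 and 2.

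The libraries were then compared gene by gene. Most fatty acid oxidation genes were within 1.25-fold between the libraries and a little higher in replicate 2, while Fabp3 was higher in replicate 1. An exact two-sided binomial test on expected counts scaled with TMM was run on 18883 genes, with a call at a Benjamini-Hochberg adjusted p of at most 0.05 and at least 2-fold. It compares these libraries, covers counting error only and has no replicate check. Of the 34 genes 1 was called, Fabp3, against 6.8% of all genes tested. Fabp3 was higher in replicate 1, where 4.05% of all genes were called, and 0 of the 34 were called higher in replicate 2, where 2.75% were. A share of 1 in 34 is near the background.

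Fabp3 (chromosome 4, 130308595 to 130315463, plus strand) had 3398 counts in replicate 1 and 1261 in replicate 2. It was 2.40-fold higher in replicate 1 (95% interval 2.25 to 2.57), with an adjusted p of 2.03e-171 by the exact binomial test. The deposited credibility intervals of its level, 132 to 141 TPM and 51.5 to 57.6 TPM, were apart. In the other quantification Fabp3 stood at 256 and 98.6 TPM. Of the 10 skeletal muscle genes 8 were called higher in replicate 1 and 1, Myh4, higher in replicate 2, with a median log2 ratio of -1.71. Of the 5 cardiac muscle genes 3 had enough counts and 2 were called higher in replicate 1. The 5 genes summed to 11.6 and 3.06 TPM. Nppa, at 0 counts in replicate 1 and 2 counts in replicate 2, had too few to be tested. Hepatocyte and red cell genes also leaned toward replicate 1, with median log2 ratios of -2.27 and -0.79. The part of muscle RNA, or of any other RNA, in the Fabp3 difference was not tested.

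The log2 ratios of counts, replicate 2 over replicate 1, ran from -0.46 for Acsl6 to 0.60 for Pdk4, Fabp3 aside. Of the 34 genes 30, or 88.2%, lay within 1.25-fold, against 72.9% of all genes tested and 93.6% of nuclear protein-coding genes at 10 TPM or more. Above 0 were 30 genes, of which Eci2 and Acot13 turned below 0 with total count scaling, and below 0 were Acsl5, Acsl6, Cpt1c and Fabp3. Of the 18883 genes tested 9322 lay above 0. The median over the 34 genes was 0.18, against -0.00 over all genes tested and 0.03 over the 6114 nuclear protein-coding genes at 10 TPM or more. Median log2 ratios by role were 0.13 for activation, 0.18 for uptake and for the carnitine shuttle, 0.19 for the acyl-CoA dehydrogenases, 0.18 for the hydratase, dehydrogenase and thiolase group, 0.17 for the auxiliary enzymes, 0.15 for electron transfer and 0.27 for the thioesterases. Without the fold limit 28 of the 34 genes were past the adjusted p, 27 of them higher in replicate 2, against 26.6% of all genes in either direction and 14.8% higher in replicate 2. Such a limit is passed by small ratios where counts are high, as for Acsl1 with 31720 and 30942 counts and a log2 ratio of 0.13. The credibility intervals were apart between the libraries in 22 of the 34 genes and overlapped in 12. They were apart in 15.5% of all genes tested and in 18.8% of nuclear protein-coding genes at 10 TPM or more, groups that were not matched on level. The intervals did not always hold the listed level. Acaa2 in replicate 1, for example, was listed at 773 TPM with an interval of 744.6 to 771.4 TPM.

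**Figure D2:**
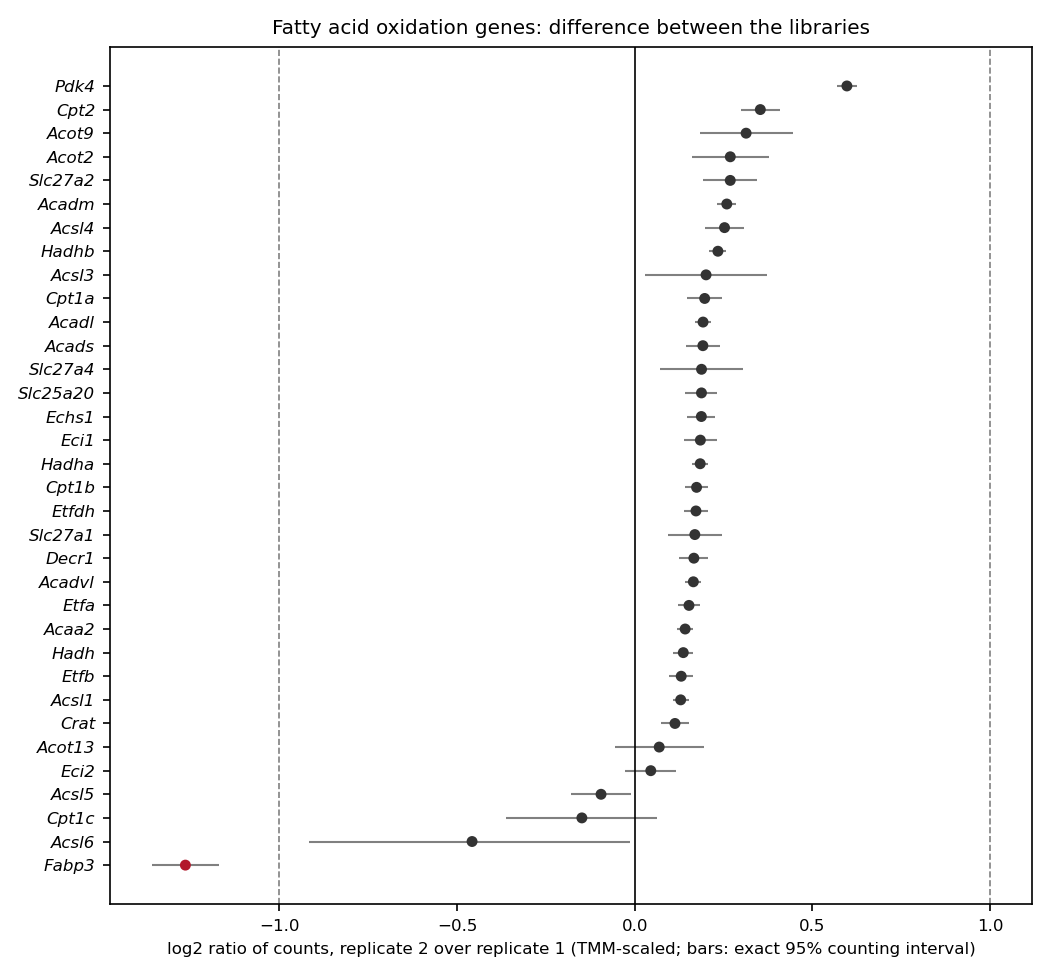
Log2 ratio of counts, replicate 2 over replicate 1, of each fatty acid oxidation gene, with exact 95% counting intervals as bars; dashed lines mark 2-fold and red marks the gene called. Fabp3, at -1.26, is the only gene beyond a dashed line, and most genes lie between 0.1 and 0.4.

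Pdk4 (chromosome 6, 5483351 to 5496309, minus strand) had the second largest difference, 1.51-fold higher in replicate 2 (95% interval 1.48 to 1.54). It missed the 2-fold limit and passed with a limit of 1.5-fold, as did 3.99% of all genes tested toward replicate 2. Toward replicate 2, Cpt2 was next, 1.28-fold higher there. Brown fat genes leaned the same way, with 6 of 7 above 0, a median log2 ratio of 0.32 and 0 called. So did adrenal cortex genes, with 9 of 10 above 0, a median of 0.13 and 0 called. Star and Fdx1 of that list stood at 0.60 and 0.62. General fat genes had 7 of 8 above 0 and a median of 0.15. Of 8 chromaffin cell genes 2 lay above 0 and 6 below. Kidney tubule genes, all 10 called higher in replicate 2, also leaned that way. The part of any of these in the ratios was not tested.

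Related pathways were read from lists beside the 34 genes. Of 20 other beta-oxidation and branched-chain acyl-CoA enzymes, 0 were called, 19 lay above 0 and the median log2 ratio was 0.19. The highest were Acat1, the mitochondrial acetoacetyl-CoA thiolase, at 122 TPM on average, Hsd17b10, a dehydrogenase of branched-chain breakdown, at 76.4 TPM, and Pccb, a subunit of propionyl-CoA carboxylase, at 72.2 TPM. Their median level of 40.7 TPM lay below the 123 TPM of the 34 genes.

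Of 17 other acyl-CoA synthetase, thioesterase and carnitine genes, 1 was called in each direction. The median log2 ratio was 0.23. Acot1, a cytosolic thioesterase, was 2.06-fold higher in replicate 2, at 6.59 and 10.8 TPM, and shares sequence with Acot2. Bbox1, the last enzyme of carnitine synthesis, was 2.99-fold higher in replicate 1, at 1.56 and 0.72 TPM. The highest genes were Acss1, a mitochondrial acetyl-CoA synthetase, at 27.9 TPM, Acsf3, a malonyl-CoA synthetase, at 22.2 TPM, and Aldh9a1, an aldehyde dehydrogenase of carnitine synthesis, at 21.4 TPM.

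Of 5 ketone body genes, 2 were called, both higher in replicate 1, and the median was -0.04. Bdh1, which forms 3-hydroxybutyrate, stood at 22.5 and 6.81 TPM, 3.86-fold higher in replicate 1. Oxct1, which consumes ketone bodies, stood at 44.3 and 65.4 TPM, and Slc16a1, a carrier of ketone bodies and lactate, at 38.5 and 36.03 TPM. Hepatocyte genes, 8 of 8 called higher in replicate 1 with a median of -2.27, moved with Bdh1. Other lists leaned the same way. Skeletal muscle genes had 8 of 10 below 0 and a median of -1.71, and red cell genes had 6 of 6 below 0 and a median of -0.79. The part of any of these was not tested.

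Of 20 regulators of the pathway, 0 were called and the median was 0.05, with 14 above 0 and 6 below. The highest were Angptl4, a lipase inhibitor and known target of PPARs, at 55.5 and 77.7 TPM, Pdk2, a relative of Pdk4, at 65.8 and 64.5 TPM, and Acacb, which makes the malonyl-CoA that inhibits Cpt1, at 45.5 and 55.5 TPM. The call counts over these lists, 4 of 62 genes, stand beside the 6.8% of all genes tested.

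**Figure D3:**
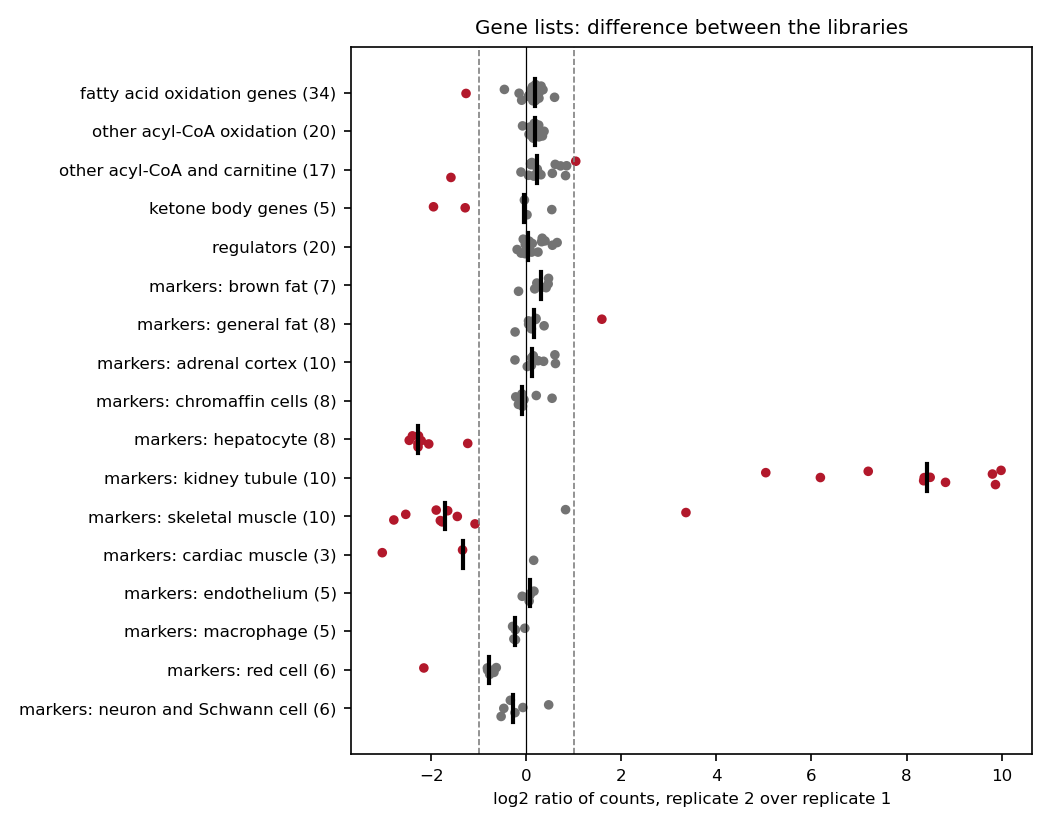
Log2 ratio of counts, replicate 2 over replicate 1, for each tested gene (points, red where called) of the fatty acid oxidation genes, related pathways and cell type marker lists, with the number of genes in brackets, the list median as a black bar and dashed lines at 2-fold. The fatty acid oxidation genes gather near their median of 0.18, while hepatocyte and skeletal muscle markers lie to the left and kidney tubule markers to the right.

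The 34 genes have 204 annotated transcripts, whose shares of a gene's TPM were read from both quantifications of each library. The most abundant transcript was the same in all 4 estimates in 26 genes, 2 of which have a single transcript. It differed in 8 genes, Acot9, Acsl3, Acsl6, Crat, Eci1, Eci2, Hadhb and Slc27a1. Within the first quantification it was the same in both libraries in 31 genes, and within the other quantification also in 31. Transcripts annotated as protein-coding took a median of 94.2% and 96.0% of a gene's TPM in replicates 1 and 2 of the first quantification and 90.8% and 92.9% in the other.

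**Figure D4:**
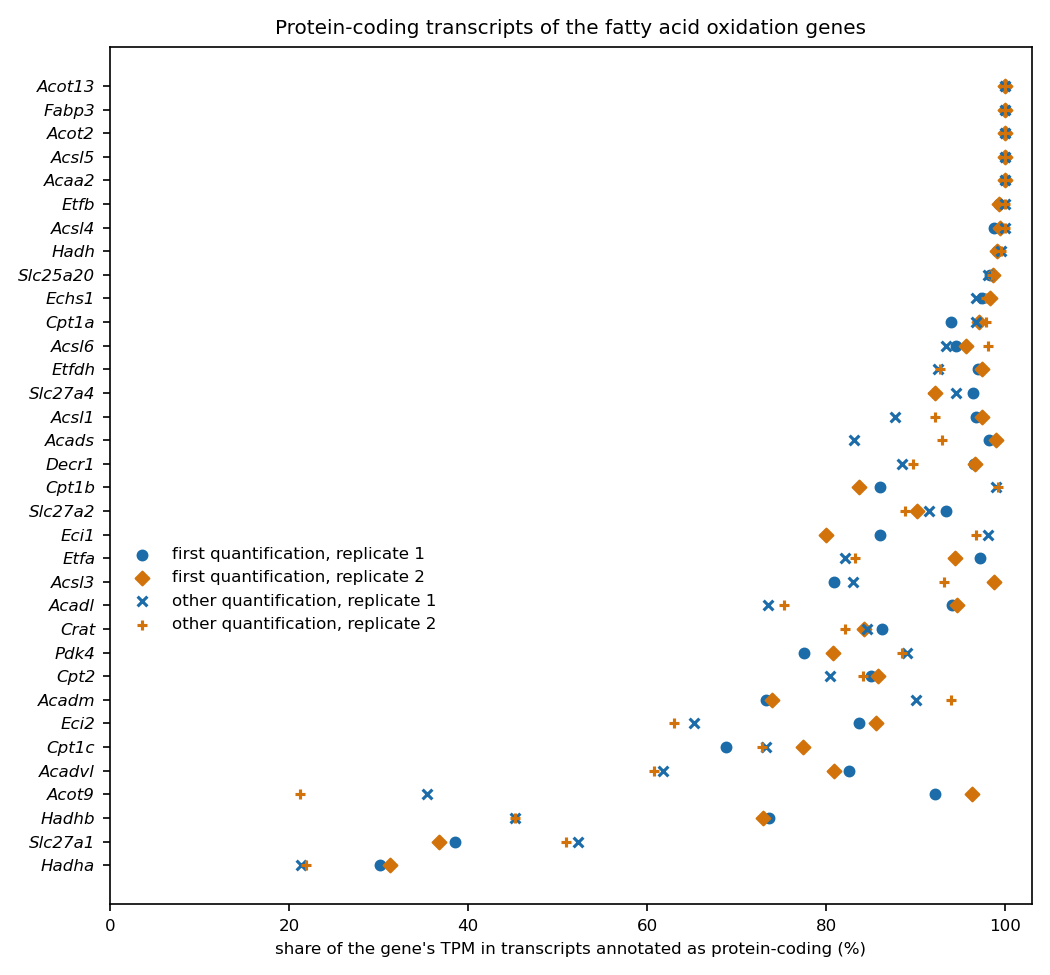
Share of each gene's TPM in transcripts annotated as protein-coding, in both libraries and both quantifications (percent; circles and diamonds, first quantification; crosses and plus signs, other quantification). Hadha is lowest in 3 of the 4 estimates, at 21.3% to 31.2%, with Acot9 lowest in replicate 2 of the other quantification at 21.2%, and Acot9 and Hadhb show wide gaps between quantifications that the libraries share.

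Hadha, chosen here after its values were seen, had a non-coding transcript as the most abundant in all 4 estimates. Hadha-201, annotated as a processed transcript, took 63.5% and 62.8% of its TPM in replicates 1 and 2 of the first quantification and 73.9% and 73.1% in the other. The coding Hadha-205 took 30.2% and 31.2%, and 21.3% and 21.9%. Hadha-201 (2552 bases) holds no base that Hadha-205 (4017 bases) lacks. It lacks 186 bases at the 5′ end, 1122 at the 3′ end and a run of 157 across exons 18 and 19. Those exons of Hadha-205 are shown on the minus strand of mm10, with the bases absent from Hadha-201 in capitals, because the junction that replaces them is the 1 junction of Hadha-201 that Hadha-205 does not have.
Hadha-205 exon 18, chr5:30120688-30120802: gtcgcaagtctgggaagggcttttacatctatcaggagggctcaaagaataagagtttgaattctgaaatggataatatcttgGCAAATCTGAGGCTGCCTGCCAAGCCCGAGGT
Hadha-205 exon 19, chr5:30120045-30120190: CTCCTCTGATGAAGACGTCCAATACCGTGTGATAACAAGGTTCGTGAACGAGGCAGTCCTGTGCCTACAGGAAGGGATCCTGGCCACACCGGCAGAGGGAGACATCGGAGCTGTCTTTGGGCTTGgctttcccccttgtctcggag
The missing run starts with GC and ends with TG. The same 6 bases, CTTGGC, span both of its edges, so the exact position of the junction within them cannot be told from the sequence. Which reads covered the junction was not tested.

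**Figure D5:**
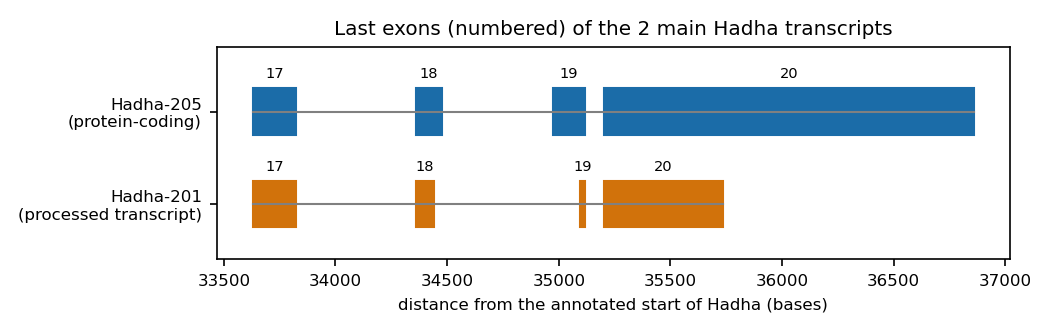
Exons 17 to 20 (boxes, numbered) of the coding transcript Hadha-205 and of the processed transcript Hadha-201, drawn to scale by distance from the annotated start of Hadha in bases. Exons 18 and 19 are shorter in Hadha-201, which lacks 157 bases there, and its last exon ends earlier.

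Hadhb, the partner subunit, was divided differently by the quantifications. Its coding transcripts Hadhb-201 and Hadhb-203 took 36.9% and 36.6% in replicate 1 and 32.1% and 40.4% in replicate 2 of the first quantification. Hadhb-208, a retained-intron transcript of 507 bases and 3 exons, took 24.8% and 25.9% there and 54.1% and 54.4% in the other. Its first exon is shown because it joins intron sequence (lower case) to an exon that the coding transcripts share (capitals), plus strand of mm10.
Hadhb-208 exon 1, chr5:30180232-30180389: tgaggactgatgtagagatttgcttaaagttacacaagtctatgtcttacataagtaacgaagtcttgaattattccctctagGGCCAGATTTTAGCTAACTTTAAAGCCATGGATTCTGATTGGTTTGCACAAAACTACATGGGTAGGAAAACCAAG
Both libraries gave nearly the same share within a quantification, and the difference lay between quantifications.

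Acot9 showed the widest gap. The coding Acot9-201 took 92.1% and 96.3% in replicates 1 and 2 of the first quantification and 35.4% and 21.2% in the other. Acot9-203, annotated as subject to nonsense-mediated decay, took 6.29% and 1.10% and then 60.1% and 71.9%. The 58 bases of Acot9-203 that Acot9-201 lacks are its second exon, shown whole in capitals (plus strand of mm10) as the exon that marks this transcript. In turn, Acot9-201 holds 70 bases that Acot9-203 lacks.
Acot9-203 exon 2, chrX:155264036-155264093: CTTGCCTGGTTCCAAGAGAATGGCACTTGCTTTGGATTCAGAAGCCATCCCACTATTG
The total level of Acot9 differed less, at 16.4 and 19.7 TPM in the first quantification and 25.6 and 30.4 TPM in the other. Over all detected genes the other quantification lay above the first by a median log2 of 0.60, and over the 34 genes by 0.62.

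In the other genes whose leading transcript changed, Eci2-211 took 52.2% and 50.3% in the first quantification and at most 0.989% in the other, where the retained-intron transcript Eci2-205 led with 28.9% and 30.3%. Eci1-205 led with 81.4% and 77.2% in the first, and in the other Eci1-201 led in replicate 1 with 40.3% and Eci1-205 in replicate 2 with 40.5%. Crat-201 gave way to Crat-202, which took 35.2% and 36.8% in the other quantification. Slc27a1-207 led in 3 estimates, with 51.3% and 50.9% in the other quantification and 26.5% in replicate 1 of the first, and the retained-intron Slc27a1-202 led in replicate 2 with 23.4%. Acsl3-205 led in 3 estimates, with 58.2% and 85.4% in the first. Acsl6, from 108 and 70 counts over 15 transcripts, had no stable leading transcript. A level of these genes can therefore be read as a sum over transcripts, not as that of 1 form.

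Promoters were searched in the RefSeq windows of GRCm38.p6 from 250 bases before to 50 after each start, which were found for 29 of the 34 genes in 34 windows. Motifs were sought on both strands, and the windows of Hadha and Hadhb overlap. The GC box GGGCGG was in 25 of the 34 windows, 73.5%, against 46.2% of windows of protein-coding genes and 35.7% of all windows. CCAAT was in 17 windows, 50%, against 38.2% and 37.4%. TATAAA was in 1 window, that of Acot9, 2.94% against 12.6% and 13.6%. The direct repeat bound by PPAR-RXR, AGGTCA repeated after 1 base of any kind, was in 0 windows, and in 0.0470% and 0.0396% of the others. TCAAGGTCA, the element known for estrogen-related receptors and steroidogenic factor, was in 1 window, that of Acsl6, against 0.334% and 0.423%. The last pair of motifs overlap in the letters AGGTCA. These matches describe letters in the windows only.

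Overlaps and copies bear on single values. By the annotation 13 of the 34 genes overlap a gene on the opposite strand and 7 a gene on the same strand. For Fabp3 these are Zcchc17, at 11.7 and 10.6 TPM, and Gm10570, at 0.43 and 0.31 TPM, both on the opposite strand. Fabp3 also has a pseudogene copy, Fabp3-ps1, at 2.32 and 0.32 TPM, 99.3% identical over 402 bases. These levels were far below the 139 and 55.7 TPM of Fabp3. Copies of at least 95% identity over 300 bases were found for 6 of the 34 genes, Acot2, Acot9, Cpt1b, Etfb, Fabp3 and Hadhb. Etfb overlaps its copy Gm45233, listed at 0.37 and 0.30 TPM.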

How the data were processed

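Total RNA-seq of adrenal glands in 2 libraries of 1 group was used. The authors deposited, per the file headers, expected counts, TPM and credibility bounds of TPM (a signal range) per gene and transcript, a percent giving each transcript's part of its gene, and in another table estimated counts and TPM per transcript. Notes deposited with the files give assembly mm10 and annotation M21; inputs were transcriptome alignments for the first quantification and reads with an index for the other. The programs and versions, and any use of the strand or of CAST/EiJ variants, were not given in the sources used here. TPM was scaled over all features.

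The members, lists and tests were chosen with earlier results of these data known. The named genes are all 34 members, and in each of 4 pathway lists the 3 highest by mean TPM and every gene called; other names were chosen after their values were seen. A gene named by the rule is not reported here. Expected counts were rounded and scaled with TMM in edgeR 4.0.16 (R 4.3.3) over genes whose counts summed to 20 or more. With 1 group the quasi-likelihood test has no contrast, so each gene was compared by an exact two-sided binomial test (scipy 1.17.1) with Benjamini-Hochberg adjustment. Log2 ratios use a prior count of 0.5, and intervals are 95% Clopper-Pearson, covering counting error only (the sources state no molecular identifiers). Of the steps only the binomial comparison was tested on simulated counts, which held counting error only. Copies were sought with blastn 2.17.0. Alternatives were DESeq2 1.42.0 size factors, total counts, ERCC counts, other filters, folds and prior counts, the other quantification, rescaled TPM and leaving out each library. Symbols matched for all 34 members. Promoter windows were not analysed here for Acaa2, Acot13, Cpt1b, Crat and Decr1.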

Additional observations from a re-analysis of the deposited data

How the results depend on the processing

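No paired analysis was possible because the series has 1 group. With no fold limit 28 members were called, 27 of them higher in replicate 2, and 5032 genes in all; with at least 1.5-fold 2 members were called, 1 of them, Pdk4, higher in replicate 2. With a summed count of at least 100, 797 of all genes were called, since fewer genes were tested. Fabp3 was called in every alternative run for the calls, with log2 ratios from -1.34 (total count scaling) to -1.26. With total count scaling the ratios of Eci2 and Acot13 turned to -0.026 and -0.0024, the members' median was 0.11 and that of all genes tested -0.07; over the other alternatives run the members' median was 0.18 to 0.19. The median level of the members was 370.4 TPM and the sum 21511 TPM when rescaled over nuclear protein-coding genes, which spreads the same total over fewer features. In the other quantification they were 201.4 and 11425 TPM, and the cause was not tested. Without each replicate in turn the median level was 128 to 130.1 TPM. With 2 libraries a log2 ratio has no replicate check, and Acsl6, at 108 and 70 counts, is the member that depth limits most.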
